A study of Mus musculus with 2 samples.

Results

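The genes described here encode the machinery that removes messenger RNA (mRNA): nonsense-mediated decay, the deadenylases, the decapping complex, the exonucleases that act from either end of the transcript, the RNA exosome, and 3 RNA-binding proteins that bring transcripts to this machinery. They were chosen by a list of 47 symbols, and all 47 had a row among the 43629 genes of both count tables. They fall into 7 groups by role: 9 genes of nonsense-mediated decay, 11 of the CCR4-NOT complex, 3 of PAN2-PAN3 and PARN, 8 of decapping, 2 XRN exonucleases, 11 of the exosome and 3 RNA-binding adaptors. The study measured polyadenylated RNA in mouse embryonic stem (ES) cells with a Dgcr8 knockout made by paired CRISPR/Cas9 cutting, in a 129/Ola background at passage 7. Its 2 libraries, A and B, form 1 group, so both carry the knockout, and wild-type cells were not analysed here. The values are therefore levels in knockout cells and differences between these libraries, not effects of the knockout. Whether separate cultures gave A and B is not in the labels, so p-values below measure only how these libraries differ, which may be technical. In bulk RNA, fewer cells of a type and less RNA per cell cannot be told apart.

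Most mRNA decay begins when the poly(A) tail is shortened, by PAN2-PAN3 on long tails and then by CCR4-NOT. The message then either loses its cap to the DCP2 enzyme and is degraded from that end by XRN1, or is degraded from the tail end by the exosome. Nonsense-mediated decay is a surveillance route in which the helicase UPF1, once phosphorylated by the kinase SMG1, marks transcripts that stop translation too early. Animal microRNAs silence their targets through the same enzymes, because Argonaute and its partner TNRC6 recruit CCR4-NOT and the helicase DDX6. Dgcr8 encodes the RNA-binding partner of Drosha in the Microprocessor, which makes the precursors of most microRNAs.

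The microRNAs most characteristic of ES cells share a seed, the part that pairs with targets, and their seed matches were searched in the members' own 3′ untranslated regions (UTRs). The microRNAs below come from RefSeq on GRCm38.p6, miR-294-3p at chr7:3220691-3220712 and miR-302b-3p at chr3:127545275-127545297, both on the plus strand. Capitals mark the seed, bases 2 to 8.
miR-294-3p: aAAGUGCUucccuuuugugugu
miR-302b-3p: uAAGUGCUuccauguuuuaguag
The matching target word is AGCACTT. It was searched on the transcript strand only, in the 3′ UTR of the longest protein-coding transcript of GENCODE M21 (build GRCm38). It occurred in 8 of 47 members (17%), against 17.4% of 11912 protein-coding genes that reached 1 CPM in A and in B. Counted as sites, it occurred 0.175 times per 1000 bases of 3′ UTR in members and 0.133 times in those genes, a difference that was not tested. CPM stands for counts per 1000000 counts of the library total. Median 3′ UTR lengths were 1034 bases for members and 1137 bases for those genes. The 8 members were Cnot6, Cnot6l, Pan3, Dcp1b, Dcp2, Exosc1, Exosc4 and Zfp36l2. Both sites of Exosc4, both of Cnot6 and the site of Zfp36l2 are shown as examples from the exosome, the deadenylases and the adaptors, with the match in capitals. Dcp2 held the most matches, 5, and its sites are not shown.
Exosc4, chr15:76329768-76329792, plus strand: ttactgtacAGCACTTaaaagctgc
Exosc4, chr15:76329830-76329854, plus strand: agtggagagAGCACTTgtgctagga
Cnot6, chr11:49673036-49673060, minus strand: gaggggaggAGCACTTactcatctc
Cnot6, chr11:49672185-49672209, minus strand: tttcatattAGCACTTtgaaaccta
Zfp36l2, chr17:84185645-84185669, minus strand: gcccctccgAGCACTTggactcgaa
The let-7 seed match CTACCTC occurred in 1 member, Edc3, or 2.13% of members against 10.7% of those coding genes. A match is a run of letters and was not tested for binding.

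Words bound by the adaptor proteins themselves were searched in the same way. The Pumilio element TGTANATA, the word read by the protein that Pum2 encodes, occurred in 17 of 47 members (36.2%) against 26.4% of coding genes. The AU-rich word TATTTAT, read by the proteins of Zfp36l1 and Zfp36l2, occurred in 15 members (31.9%) against 29.7%. A Pumilio element can share bases with an AU-rich word. The adaptor genes hold the words of their own proteins, which is why their sites are printed, with the word in capitals.
Pum2, chr12:8750156-8750181, plus strand: ttatagagaTGTATATAgaattatag
Pum2, chr12:8750409-8750434, plus strand: gtacagaatTGTATATActtataatt
Zfp36l1, chr12:80108424-80108448, minus strand: atcaaaacgTATTTATtgccaaact
Zfp36l1, chr12:80108383-80108407, minus strand: ttttgttcaTATTTATcgggatgac
Zfp36l1, chr12:80108169-80108193, minus strand: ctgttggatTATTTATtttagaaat

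Library A totalled 27872396 counts and library B 30327146. Dgcr8 itself held 1253 counts in A and 1942 in B, which does not check the genotype, because counts per gene do not show which exons were read. All 8 ES cell markers reached 1 CPM in both libraries, with a summed level of 9343 CPM in A and 6151 in B. Dppa5a made most of that difference, at 4252 and 1767 CPM. The median marker lay at 653 and 645 CPM, and 6 of the 8 were called higher in A and 2 in B. Of 9 markers of extraembryonic endoderm 5 reached 1 CPM in both libraries. The sum of all 9 was 81.1 CPM in A and 236 in B, mostly from Lama1 (47.3 and 142) and Col4a1 (21.1 and 56.7). Of the 7 tested, 6 were called higher in B and 1, Gata4, higher in A. Sox17 and Foxa2 stayed under 1 CPM in both. Of 9 fibroblast markers 4 reached 1 CPM in both, with sums over all 9 of 47.9 and 30.2 CPM. Lum and Fap had no count in either library. Thy1 made most of these sums, at 31.4 and 21.9 CPM, and 3 of the 4 tested were called higher in A. The test described below called 38.4% of all genes in each direction. Mitochondrial genes took 2.01% of counts in A and 2.83% in B. These values differ between the libraries alongside the decay genes, and their part in the differences described below was not tested.

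All 47 decay genes were expressed. Each reached 1 CPM in both libraries, as did 13372 genes in all, and member counts ran from 191 (Dcp1b in B) to 14752 (Cnot1 in B). Together they made up 0.414% of library A and 0.555% of library B. Their median level was 86.6 CPM, against 26.7 CPM for all genes that reached 1 CPM in each library. The median of the protein-coding genes among these was 29.8 CPM. Levels of different genes are compared below in RPKM, which is CPM per 1000 bases of the gene's summed exons. The median RPKM was 14.7 in A and 20.4 in B for the members, against 6.39 and 6.22 for protein-coding genes of that set.

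**Figure D1:**
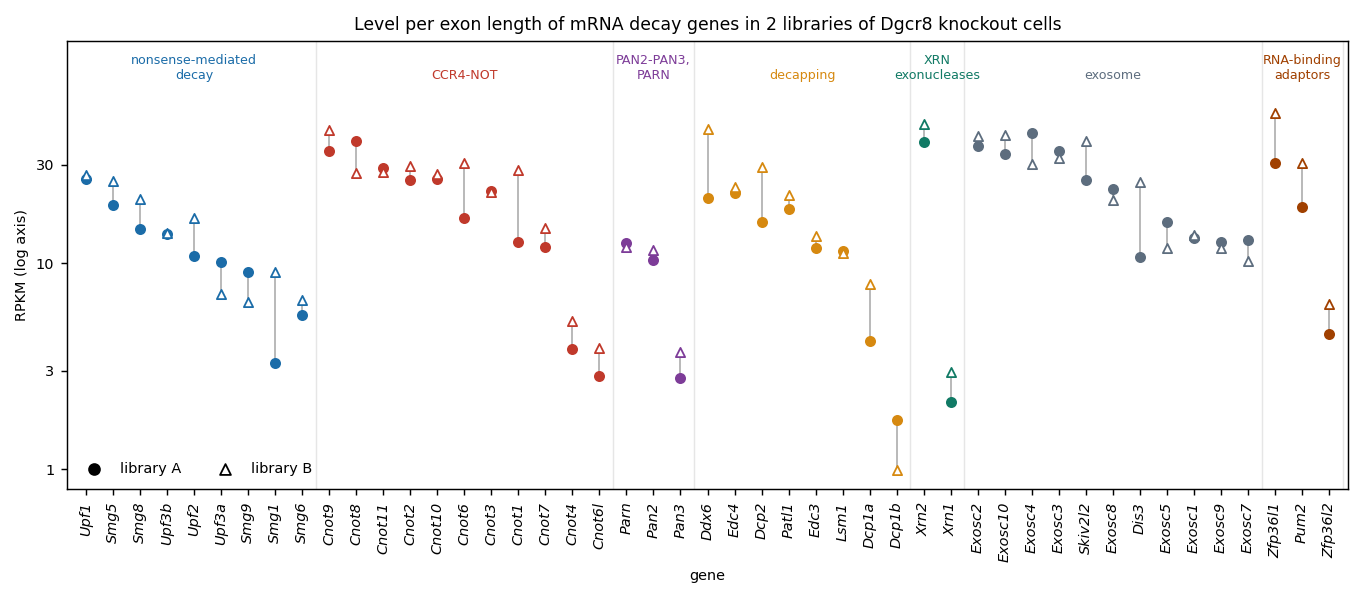
Level of each decay gene in RPKM (log axis), with library A as filled circles and library B as open triangles, grouped by role and ordered by mean. Mean levels run from 1.37 RPKM for Dcp1b to 42.8 RPKM for Xrn2, and the gap between the symbols of a gene is widest for Smg1.

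The libraries were set against each other by exact binomial tests, two-sided and per gene, with totals scaled by TMM and adjusted by the Benjamini-Hochberg method over all 14583 genes tested. The test compares these libraries with each other, and it called 76.8% of all genes. Of the 47 decay genes 40 were called. Among them 33 were higher in B, where 38.4% of all genes were, and 7 were higher in A, where 38.4% of all genes were as well. Past 1.5-fold lay 12 decay genes, against 37.9% of all genes: 11 were higher in B (background 18.5%) and 1 in A (background 19.4%). Past 2-fold were 4, all higher in B (background 6.57%) and none in A (background 7.37%), and 13.9% of all genes passed 2-fold in either direction. The median difference B minus A in log2(TMM-scaled CPM + 0.5), called the log2 ratio here, was 0.32 for the decay genes and -0.01 for all genes tested. The median size of the ratio, regardless of direction, was 0.40 for the decay genes and 0.44 for all genes.

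**Figure D2:**
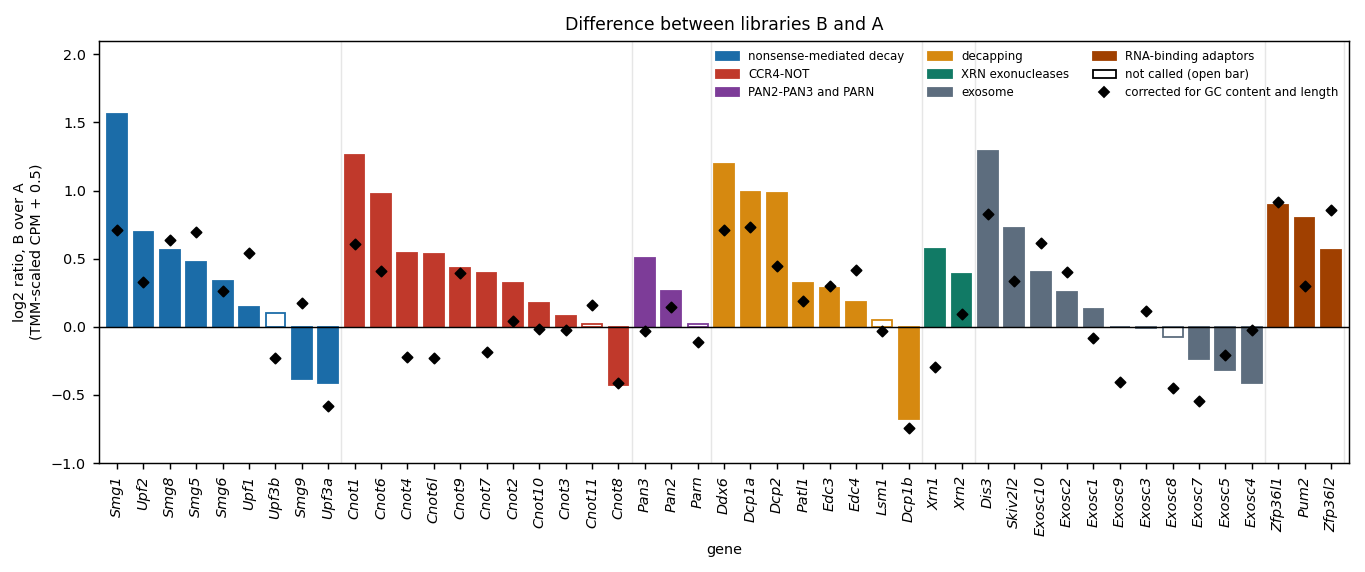
Log2 ratio of B over A for each decay gene (bars, TMM-scaled CPM + 0.5, filled where called and open where not) and the same ratio after correction for GC content and length (diamonds). The tallest bars are Smg1 (1.56), Dis3 (1.29), Cnot1 (1.26) and Ddx6 (1.19), and the lowest is Dcp1b (-0.67).

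Without correction for GC content and length, the core helicase of nonsense-mediated decay differed little between the libraries and its kinase differed more. With correction the log2 ratios were 0.55 for the helicase gene and 0.71 for the kinase gene. Upf1, the helicase (ENSMUSG00000058301, chromosome 8, 70331525 to 70353278), lay at 25.6 RPKM in A and 26.6 in B, the highest mean of this group by summed exons. By the longest transcript Smg5 (mean 154 CPM, 4448 bases) lay above Upf1 (mean 121 CPM, 4618 bases). The TMM-scaled level of Upf1 was 1.11-fold higher in B, a call that was lost with library totals without TMM (exact binomial test, adjusted p = 3.2e-05, and 0.13 without TMM). Its log2 ratio was 0.15, and 0.55 after that correction. Smg1, the kinase of UPF1 (ENSMUSG00000030655, chromosome 7, 118131308 to 118243670), held 2189 counts in A and 6618 in B, or 3.27 and 9.10 RPKM. Its 2.95-fold higher level in B was the largest uncorrected difference of any decay gene. Corrected, its log2 ratio was 0.71 in place of 1.56, below those of Zfp36l1, Zfp36l2, Dis3, Dcp1a and Ddx6. Smg8 and Smg9 encode the regulatory partners of that kinase, and they went opposite ways. Smg8 lay at 14.7 RPKM in A and 20.4 in B (1.48-fold in favour of B), and Smg9 at 9.04 and 6.48 RPKM (1.30-fold higher in A).

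The adaptors of UPF1 also split. Upf2, which bridges UPF1 and the UPF3 proteins, lay at 10.9 RPKM in A and 16.6 in B, a 1.62-fold excess in B. Upf3b, the X-linked gene for the protein that contacts the exon junction complex, lay at 13.9 RPKM in A and 14.0 in B and did not pass (exact binomial test, adjusted p = 0.052). Its paralog Upf3a lay at 10.1 and 7.08 RPKM and was 1.33-fold higher in A. The genes that carry out degradation were higher in B, Smg5 at 19.2 and 25.1 RPKM (1.39-fold) and the endonuclease gene Smg6 at 5.59 and 6.63 RPKM (1.26-fold). Of the 9 genes 6 were called higher in B and 2 higher in A, against 38.4% of all genes in each direction. The counts of the other groups below stand against the same shares. The median log2 ratio of the 9 genes was 0.33. After correction for GC content and length the ratio of Smg9 turned to 0.17.

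The CCR4-NOT complex was led by its scaffold in the size of the difference. Cnot1 (ENSMUSG00000036550, chromosome 8, 95719451 to 95807464), on which the other subunits assemble, held 6032 counts in A and 14752 in B, the most of any decay gene. This was 12.6 and 28.3 RPKM, or 2.39-fold higher in B. A processed pseudogene, Gm6158, matches Cnot1 at 99.8% over 903 bases and held 1489 and 1129 counts, so reads may be split between them. With both summed, an alternative chosen after seeing the data, the log2 ratio was 1.05 in place of 1.26. Corrected for GC content and length, the ratio of Cnot1 alone was 0.61. Processed pseudogenes also match Cnot3 (Gm9207, 98.8% over 1116 bases) and Cnot8 (Gm18860, 97.8% over 760 bases). Neither pseudogene was among the genes counted, so reads shared with them cannot be seen.

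Among the subunits that sit on the scaffold, Cnot9, which docks TNRC6, had the highest mean of the complex, 39.8 ± 6.60 RPKM (SD, n = 2), from 35.1 in A and 44.4 in B (1.35-fold in favour of B). In A alone Cnot8 was higher. Cnot2 and Cnot3 encode the partners that form the NOT module. Cnot2 lay at 25.3 and 29.7 RPKM (1.25-fold higher in B), and Cnot3 at 22.3 and 22.2 RPKM. Cnot3 was called higher in B at 1.06-fold, and without TMM the direction turned and the call was lost (exact binomial test, adjusted p = 0.0089, and 0.76 without TMM). Cnot10 and Cnot11, which form the module at the scaffold's N-terminal part, were nearly level. Cnot10 lay at 25.5 and 27.0 RPKM (1.13-fold higher in B). Cnot11 lay at 29.0 and 27.6 RPKM and did not pass (exact binomial test, adjusted p = 0.57). Cnot4, a ubiquitin ligase gene attached loosely to the complex, was lower, at 3.84 RPKM in A and 5.26 in B (1.45-fold in favour of B).

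The complex carries deadenylases of separate families, each encoded by a pair of paralogs. Within the EEP family, Cnot6 lay at 16.5 RPKM in A and 30.5 in B, a 1.97-fold excess in B. Its paralog Cnot6l lay at 2.84 and 3.88 RPKM, 1.45-fold higher in B. Cnot6l made up 21.1% of the counts of that pair in A (19.9 to 22.5, exact 95% Clopper-Pearson) and 16.5% in B (15.7 to 17.4). Within the CAF1 family, Cnot8 was the gene that went the other way, at 39.2 RPKM in A and 27.3 in B, a 1.35-fold excess in A. Cnot7 lay at 12.0 and 14.8 RPKM, 1.31-fold higher in B. The share of Cnot7 in the counts of its pair was 40.3% in A (38.9 to 41.7) and 54.5% in B (53.1 to 56.0), so which paralog held more counts differed between the libraries. Per length Cnot8 exceeded Cnot7 in both, with an RPKM ratio of Cnot7 over Cnot8 of 0.306 in A and 0.543 in B. These intervals cover counting error only. Of the 11 CCR4-NOT genes 9 were called higher in B and 1 higher in A, with a median log2 ratio of 0.39. Corrected for GC content and length, the median was -0.01, and Cnot3 (-0.02), Cnot4 (-0.22), Cnot6l (-0.23), Cnot7 (-0.18) and Cnot10 (-0.01) changed sign.

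Outside CCR4-NOT, of the 3 other deadenylase genes 2 were called, both higher in B and neither past 1.5-fold. Pan2, the catalytic subunit that trims long tails, lay at 10.3 RPKM in A and 11.6 in B (1.20-fold in favour of B). Pan3, its poly(A)-binding adaptor, was lower at 2.76 and 3.68 RPKM (1.42-fold higher in B), and its corrected log2 ratio was -0.03. Parn, a poly(A)-specific nuclease that also matures small noncoding RNAs, lay at 12.5 and 11.9 RPKM and did not pass (exact binomial test, adjusted p = 0.65).

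Decapping genes had mean levels from 1.37 to 32.7 RPKM, the largest ratio of highest to lowest among the 7 groups. Ddx6 (ENSMUSG00000032097, chromosome 9, 44604892 to 44640731), the helicase that links CCR4-NOT to decapping, held 4657 counts in A and 10877 in B. At 20.8 and 44.6 RPKM it was 2.29-fold higher in B. By summed exons it was the highest of the group in B, and in A Edc4 was. Dcp2, the decapping enzyme, followed the same direction at 15.8 and 29.3 RPKM (1.97-fold). Its activators again form a pair of paralogs that went opposite ways. Dcp1a held 963 counts in A and 1965 in B, or 4.20 and 7.87 RPKM, and was 1.99-fold higher in B. Dcp1b (ENSMUSG00000041477, chromosome 6, 119175253 to 119221616) held 307 and 191 counts, or 1.74 and 0.994 RPKM, and was 1.59-fold higher in A. Dcp1b was the lowest decay gene, with exact 95% Poisson intervals of 9.82 to 12.3 CPM in A and 5.44 to 7.26 CPM in B. The share of Dcp1a in the counts of the pair was 75.8% in A (73.4 to 78.2) and 91.1% in B (89.9 to 92.3), and per length Dcp1a exceeded Dcp1b 2.42-fold in A and 7.92-fold in B.

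The scaffolds and enhancers of decapping differed less than Ddx6 and Dcp2. Edc4, a large scaffold gene, lay at 21.9 RPKM in A and 23.3 in B (1.13-fold in favour of B), and Edc3 at 11.9 and 13.6 RPKM (1.22-fold). Patl1, which joins the deadenylated end to the decapping enzyme, lay at 18.2 and 21.4 RPKM (1.25-fold higher in B). Lsm1, the subunit that directs the cytoplasmic LSM ring to decay, lay at 11.5 and 11.2 RPKM and did not pass (exact binomial test, adjusted p = 0.46). Edc3 shares 22.1% of its exon length with Clk3 on the opposite strand, so its counts are uncertain if strand was not used in counting, which is not stated. Edc4 shares 8.33% with Nrn1l on the same strand, where strand cannot tell the genes apart. Of the 8 genes 6 were called higher in B and 1 higher in A, with a median log2 ratio of 0.30, or 0.36 corrected.

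The XRN genes had one high and one low member. Xrn2, the nuclear exonuclease that helps end transcription, lay at 38.5 RPKM in A and 47.1 in B (1.31-fold in favour of B). By summed exons its mean was the highest of all decay genes, although Exosc4 and Cnot8 were higher in A and Zfp36l1 was higher in B. By the longest transcript Skiv2l2 (mean 206 CPM, 3689 bases) lay above Xrn2 (mean 170 CPM, 3434 bases). Xrn1, which degrades decapped mRNA in the cytoplasm, lay at 2.12 and 2.96 RPKM (1.48-fold higher in B). The exons of Xrn1 sum to 18585 bases against 10256 in its longest transcript, so its RPKM depends on which length is used. Corrected for GC content and length, its log2 ratio was -0.29.

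The exosome genes were divided in direction, with a median log2 ratio of -0.0029, or -0.020 corrected for GC content and length. Exosc1, Exosc2 and Exosc3 encode the cap, and Exosc4, Exosc5, Exosc7, Exosc8 and Exosc9 belong to the ring through which RNA is threaded. Of these 8 genes 2 were called higher in B and 3 higher in A, none past 1.5-fold, against 38.4% of all genes in each direction. Their summed level was 625 CPM in A and 556 in B. This subset was formed after the values were seen and is a description. In the cap, Exosc2 lay at 36.9 RPKM in A and 41.3 in B (1.19-fold in favour of B), and Exosc3 at 34.9 and 32.5 RPKM with no call (exact binomial test, adjusted p = 0.88). Exosc1 lay at 13.3 and 13.7 RPKM. It was called higher in B at 1.10-fold, a call that was lost without TMM (exact binomial test, adjusted p = 0.014, and 0.49 without TMM), and its corrected log2 ratio was -0.08.

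In the ring, Exosc4 (ENSMUSG00000034259, chromosome 15, 76327397 to 76330677) lay at 42.9 RPKM in A and 30.2 in B and was 1.33-fold higher in A. Exosc5 lay at 15.8 and 11.8 RPKM (1.25-fold higher in A) and Exosc7 at 12.9 and 10.2 RPKM (1.18-fold higher in A). Exosc8, at 22.9 and 20.3 RPKM, was not called with TMM but was called higher in A without it (exact binomial test, adjusted p = 0.061, and 2.4e-05 without TMM). Exosc9 lay at 12.6 and 11.8 RPKM and did not pass (exact binomial test, adjusted p = 0.97). Corrected for GC content and length, the log2 ratio of Exosc4 was -0.02 in place of -0.41. Corrected ratios of Exosc5, Exosc7, Exosc8 and Exosc9 were -0.21, -0.54, -0.45 and -0.41. Exosc4 shares 19.8% of its exon length with Oplah, and Exosc9 shares 10.8% with Ccna2, each on the opposite strand. Exosc2 of the cap shares 12.4% with Gm13427, also on the opposite strand. The limit given for Edc3 holds for these exosome genes too.

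The nucleases and the helicase that work with this core were all higher in B. Dis3 (ENSMUSG00000033166, chromosome 14, 99075206 to 99099770), the main catalytic subunit, held 2324 counts in A and 5812 in B. At 10.8 and 24.7 RPKM it was 2.44-fold higher in B. Exosc10, the nuclear exonuclease, lay at 33.9 and 42.0 RPKM (1.32-fold higher in B). Skiv2l2, named Mtrex in the annotation, encodes the helicase that feeds RNA to the nuclear exosome and lay at 25.3 and 39.1 RPKM (1.65-fold higher in B). Over all 11 exosome genes 5 were called higher in B and 3 in A, and the highest mean RPKM was 3.38 times the lowest, against 11.8 times in CCR4-NOT.

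The RNA-binding adaptors were all called higher in B. Zfp36l1 (ENSMUSG00000021127, chromosome 12, 80107754 to 80113013), which binds AU-rich elements and recruits CCR4-NOT, held 2552 counts in A and 4863 in B, or 30.6 and 53.6 RPKM. It was 1.86-fold higher in B. A noncoding gene on the opposite strand, Gm26669, covers 55.9% of its exon length and held 15 and 43 counts. The counts of Zfp36l1 are therefore uncertain if strand was not used in counting, which is not stated. Zfp36l2, its paralog, was lower at 4.52 RPKM in A and 6.33 in B (1.48-fold in favour of B). Zfp36l1 made up 85.2% of the counts of that pair in A (83.8 to 86.4) and 87.8% in B (86.9 to 88.6). Pum2, whose protein binds the Pumilio element printed above, lay at 18.6 and 30.5 RPKM and was 1.74-fold higher in B. The median log2 ratio of the 3 genes was 0.80, or 0.86 corrected for GC content and length. These medians belong to different genes. On correction Pum2 went from 0.80 to 0.30, Zfp36l2 from 0.56 to 0.86 and Zfp36l1 from 0.90 to 0.92.

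**Figure D3:**
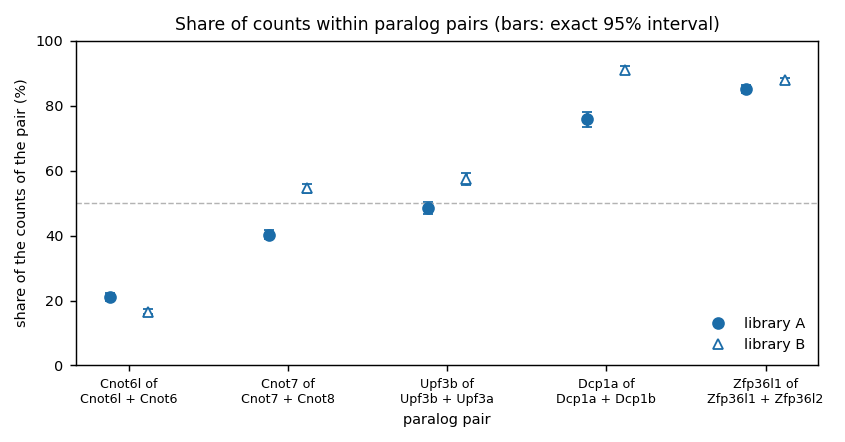
Share of the first gene in the summed counts of each paralog pair (%), library A as filled circles and library B as open triangles, with exact 95% Clopper-Pearson intervals that cover counting error only. For Cnot7 the share runs from 40.3% in A to 54.5% in B, for Upf3b from 48.4% to 57.4%, and for Dcp1a from 75.8% to 91.1%. The dashed line marks an equal share.

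The ratio between the libraries moved with the GC content and length of the genes. Across the 47 decay genes the log2 ratio correlated with GC content of the longest transcript at a Pearson r of -0.40 and with log2 exon length at 0.53. Across 14509 tested genes with these values r was -0.48 and 0.26. Genes are not independent replicates, and these are descriptions. Of 17 decay genes under 45% GC, 14 were called higher in B and none in A, where 64.9% and 13.5% of all genes of that GC content were. Of 14 at 45 to under 50% GC, 8 were higher in B and 3 in A, against 47.5% and 26.6% of all genes. Of 16 at 50% GC or more, 11 were higher in B and 4 in A, against 21.3% and 56.3%. In that last class the median log2 ratio was 0.22 for the decay genes and -0.30 for all genes. Corrected for GC content and length over all tested genes, the median of the decay genes was 0.16 in place of 0.32. Of the 47 decay genes 28 stayed or came above 0, against 7173 of the 14509 tested genes with these values. The genes past 2-fold had corrected log2 ratios of 0.71 for Smg1, 0.83 for Dis3, 0.61 for Cnot1 and 0.71 for Ddx6, so none was past 2-fold after correction. The largest corrected log2 ratios were those of Zfp36l1 (0.92) and Zfp36l2 (0.86).

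**Figure D4:**
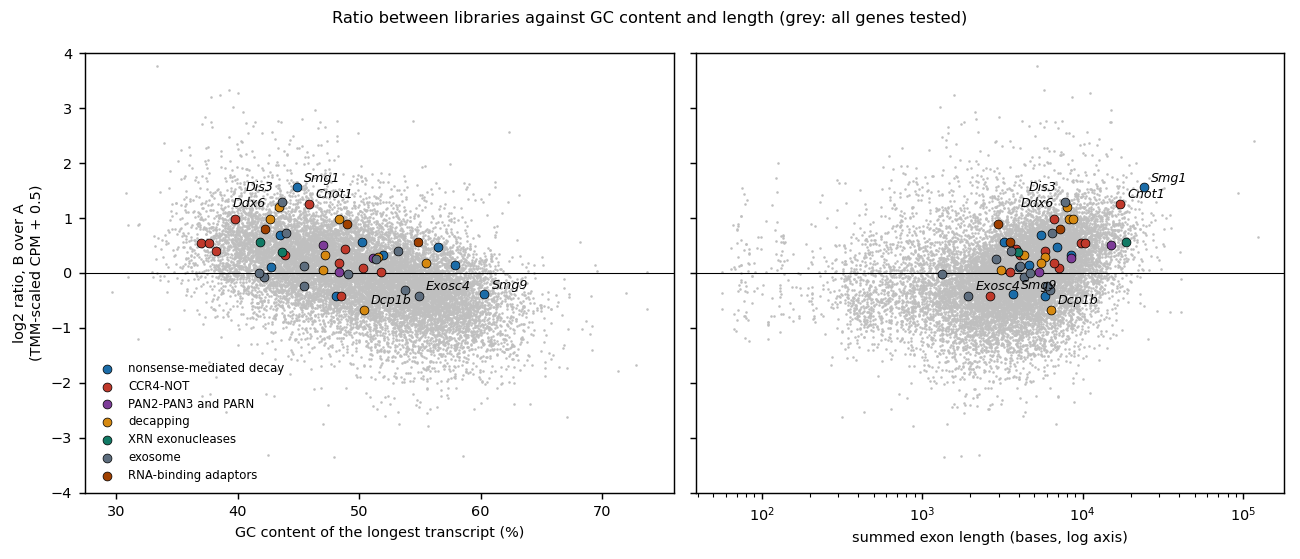
Log2 ratio of B over A (TMM-scaled CPM + 0.5) against GC content of the longest transcript (left, %) and summed exon length (right, bases, log axis), with decay genes coloured by group and all tested genes in grey. Low-GC and long genes lie higher in both sets, and Smg1, Dis3, Cnot1 and Ddx6 lie near the top of the decay genes.

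Other genes of these pathways were listed by role, with earlier results of these data known. Of 73 listed genes 71 had a row and 69 were tested. Of these, 34 were called higher in B and 23 higher in A, against 38.4% of all genes in each direction. Their median log2 ratio was 0.08, or 0.01 corrected for GC content and length. The counts of the 5 lists below stand against the same shares. Among 13 nonsense-mediated decay and exon junction genes 7 were higher in B and 2 in A. The translation termination factor gene Etf1 was highest by CPM at 474 in A and 812 in B, followed by Gspt1, its partner, at 356 and 452. Magohb, an exon junction gene at 4.45 and 8.84 CPM, had the largest ratio in favour of B, and Dhx34 at 12.8 and 6.96 CPM the largest in favour of A (1.68-fold). On correction the log2 ratio of Magohb went from 1.00 to 0.78 and that of Dhx34 from -0.75 to -0.27.

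Among 15 tested deadenylation regulators and poly(A)-binding genes 5 were higher in B and 7 in A. The main cytoplasmic poly(A)-binding gene Pabpc1 was by far the highest, at 3306 CPM in A and 4081 in B, followed by mean CPM by Noct at 131 and 238, which also had the largest ratio in favour of B (1.94-fold). Paip2, which encodes an inhibitor of PABPC1 and was named after its values were seen, lay above Noct in A and below it in B, at 199 and 166 CPM. Btg2, of the BTG and TOB family that recruits CAF1 deadenylases, was 2.32-fold higher in A (99.6 and 40.0 CPM). Its relatives Tob1, Tob2 and Btg1, named after their values were seen, were also higher in A, whereas Btg3, at 1.26 and 1.22 CPM, did not pass. Pabpc1l (24 and 13 counts) and Btg4 (0 and 1) stayed below 1 CPM.

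Decapping genes outside the main list had 3 of 13 higher in B and 8 higher in A. Their median log2 ratio was -0.27, or -0.13 corrected for GC content and length. Lsm14a (136 and 180 CPM, log2 ratio 0.49) and Lsm3 (127 and 107 CPM, 1.11-fold higher in A) were highest by CPM, and Patl2 was 2.16-fold higher in A (8.11 and 3.26 CPM). Of the LSM ring partners of Lsm1, Lsm2, Lsm3 and Lsm4 were called in favour of A and Lsm6 in favour of B. Lsm5 and Lsm7 did not pass, and these partners were named after their values were seen. On correction the log2 ratio of Lsm4 went from -0.63 to 0.03 and that of Lsm6 from 0.12 to -0.07. Lsm2 and Lsm3 stayed negative, at -0.31 and -0.19. Among 15 exosome cofactors and further nucleases 11 were higher in B and 3 in A. Zc3h18 (120 and 148 CPM) and Wdr61 (89.6 and 93.5 CPM) were highest. Ttc37, the scaffold of the cytoplasmic SKI complex, was 2.62-fold higher in B (34.3 and 85.1 CPM), and Dis3l2 was 1.42-fold higher in A (27.2 and 17.8 CPM). Their log2 ratios of 1.39 and -0.51 became 0.75 and -1.15 after correction for GC content and length. Sequence-specific decay factors had 8 of 13 higher in B and 3 in A. Hnrnpd, which binds AU-rich elements, was highest at 304 and 365 CPM (1.28-fold higher in B). Samd4 was 2.26-fold higher in B (1.83 and 4.48 CPM), and Zfp36, the founding relative of Zfp36l1, was 1.49-fold higher in A (23.8 and 14.8 CPM).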

How the data were processed

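Each deposited table holds raw counts, whole numbers of reads assigned to Ensembl genes, which the authors had not normalized. STAR 2.4.2a, featureCounts 1.4.5-p1 and the build mm10 appear in the submitters' processing notes. The labels call the libraries reverse-stranded, made from Trizol RNA with an Illumina TruSeq kit. For the annotation release, the strand setting and multi-mapping reads, settings were not given in the sources used here. Names, positions, lengths and GC content came from GENCODE M21 (GRCm38), matching 42548 of 43629 identifiers. Skiv2l2 was matched as Mtrex through RefSeq synonyms.

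CPM used library totals, and RPKM the summed exons of a gene. Ratios used TMM (factors 1.03 for A and 0.968 for B, edgeR 4.0.16 in R 4.3.3) and a pseudocount of 0.5. Genes reaching 1 CPM in A or B entered an exact binomial test (SciPy 1.17.1), with calls at an adjusted p under 0.05. The test was tested on simulated counts that held only counting error and set fold changes. That simulation does not check the calls against other differences between the libraries. With 1 group no test between conditions exists. GC content and length were corrected by cubic polynomials fitted over all tested genes. Copies of members were sought with blastn 2.17.0 at 95% identity or more over at least 200 bases. Intervals cover only counting error, because PCR copies were not marked by molecular identifiers.

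Members and lists were chosen with earlier results of these data known. The text names every member and, of each list of other pathway genes, the 2 highest by CPM, those under 1 CPM in both libraries and the largest ratio in each direction. One gene that this rule selects is not reported here. Exosc6 and Samd4b were not analysed here. Alternatives tried were library totals, size factors of DESeq2 1.42.0, other filters, Fisher's exact test, pseudocounts of 0.1 and 1, the correction, transcript length, and each library alone.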

Additional observations from a re-analysis of the deposited data

How the results depend on the processing

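Depth limits little here, since the lowest decay gene held 191 counts. The number of decay genes called was 38 to 41 under every scaling, filter, pseudocount and test tried, and those higher in B were 30 to 34. Past 1.5-fold lay 15 decay genes with DESeq2 size factors and 11 with the filter at 10 CPM, in place of 12. With DESeq2 size factors Cnot6, Dcp1a and Dcp2 also passed 2-fold, at log2 ratios of 1.004, 1.02 and 1.01. With library totals the median log2 ratio of all genes was -0.10 in place of -0.01, that of the decay genes was 0.23, and 43.0% of all calls were higher in B in place of 50%. Cnot3 then reversed to -0.010. Corrected for GC content and length, 9 called genes reversed: Smg9 to 0.17, Cnot3 to -0.023, Cnot4 to -0.22, Cnot6l to -0.23, Cnot7 to -0.18, Cnot10 to -0.015, Pan3 to -0.031, Xrn1 to -0.29, and Exosc1 to -0.082. DESeq2 size factors and the filter at 10 CPM in both libraries also called Upf3b higher in B (adjusted p = 0.013 and 0.048, exact binomial test). Dcp1b did not enter the test at 10 CPM. With the length of the longest transcript the median RPKM of the decay genes was 23.2 in place of 17.7, because that length is shorter than the summed exons. The median RPKM was 14.7 without B and 20.4 without A. No paired analysis was possible because the series holds 1 group.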
